A study of Mus musculus with 18 samples.

Results

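Medullary thymic epithelial cells (mTECs) show developing T cells the proteins of many other tissues, from insulin to liver and gut proteins. Aire is the nuclear protein best known for switching on many of these tissue-restricted genes in mTECs. Chd4 is a DNA-dependent ATPase that moves nucleosomes and is the motor subunit of the NuRD complex, which also carries histone deacetylases. The comparison described here sets the effect of losing Chd4 against the effect of losing Aire, gene by gene. It asks which genes need both proteins, which need only Aire, and which change in opposite directions.

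Bulk RNA-seq counts of sorted mTECs were used from 12 of the 18 libraries of the series, 3 in each of 4 groups. The Aire KO mice and their own wild-type controls (WT for Aire) were C57BL/6. The Chd4 conditional knockout (cKO) mice were C57BL/6x129P2, Chd4 flox/flox with Foxn1-Cre, a recombinase driven by a promoter active in thymic epithelium, and their controls (Chd4 control) were Chd4 flox/flox of that strain without a named Cre. The remaining 6 libraries (Fezf2 KO and WT for Fezf2, both C57BL/6) served as a side readout. Neither the ages of the mice nor the deleted part of Aire is given in the sources used here, and nothing there says whether the 3 libraries of a group came from separate mice, so p values measure the spread between libraries, which may be technical. The Aire and Chd4 experiments share no library. They differ in strain, sequencing run and annotation table, which cannot be told apart from the targeted gene in the difference. Each effect was taken within its own experiment.

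The difference of effects is the log2 fold change of Chd4 loss (Chd4 cKO over Chd4 control) minus that of Aire loss (Aire KO over WT for Aire). All 12 libraries were fitted together with edgeR's quasi-likelihood test on 21875 gene IDs present in both tables, of which 15663 passed a filter on low counts. A gene was called when its Benjamini-Hochberg adjusted p over all 15663 genes was under 0.05. Levels are in CPM, the usual unit of counts scaled to a common library size, here with TMM scaling. Letters A, B and C tell the libraries of one group apart and pair nothing between groups.

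Exon reads on the shared genes were between 3571099 and 6945104 in all of the 12 libraries but Chd4 cKO B, which had 17217887, and mitochondrial genes took 1.24 to 2.56% of them in the 12 libraries. The epithelial genes Epcam (489 to 689 CPM) and Krt8 (1627 to 3856 CPM) and the class II gene H2-Ab1 (7359 to 19050 CPM) were high in all 12, the cortical gene Psmb11 lay at 6.31 to 46.2 CPM and the leukocyte gene Ptprc at 5.28 to 16.0 CPM. Chd4 itself lay at 51.8, 61.8 and 54.8 CPM in the Chd4 control and at 23.3, 26.1 and 28.8 CPM after its deletion, a log2 change of -1.11 ± 0.17 (SE, adjusted p = 0.000193). The words without Chd4 below thus stand for libraries that kept some Chd4 RNA. The part of this remainder in the size of the Chd4 effects and in the spared class was not tested. Aire RNA was higher, not lower, in the libraries labelled Aire KO, at 4061, 4460 and 4365 CPM against 2092, 1959 and 2486 CPM (log2 change 0.98 ± 0.09, adjusted p = 1.789e-06). Since the deleted part is not known, this transcript level does not check the label, and every direction below is that of the libraries labelled Aire KO. Library B of the WT for Aire stood apart in Foxn1, at 23.3 CPM against 174 and 146 CPM in its group, and held 5.34 CPM of the Y-linked Ddx3y, against 68.5 and 71.3 CPM. Ddx3y was above 50 CPM in 5 of the 12 libraries, among them 2 of the Aire KO, 1 of the Chd4 control and none of the Chd4 cKO, so sex was not balanced and its part in the results was not tested. Without WT for Aire B the counts of the next paragraphs changed little, from 1686 to 1585 Aire-dependent genes and from 353 to 339 lost in both. The members changed more. Of the classes defined below, 311 of the 353 lost, 367 of the 469 spared and 108 of the 143 raised genes kept their class.

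Loss of Aire lowered 2178 genes (13.9% of those tested) and raised 1154 (7.37%). Loss of Chd4 lowered 1715 (10.9%) and raised 1914 (12.2%). The Chd4 effect lay above the Aire effect in 2384 genes (15.2%) and below it in 1320 (8.43%). The median difference over all genes was 0.11 on the log2 scale. Genes called in both experiments were 496 lower in both, 165 higher in both, 271 lower without Aire and higher without Chd4, and 231 higher without Aire and lower without Chd4.

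Aire-dependent genes are taken here as those called lower and at least 2-fold lower in the Aire KO, 1686 genes or 10.8% of all tested. They were divided by the Chd4 effect, which uses other libraries than the Aire effect. The joint fit shares its filter and estimate of spread, however, and with each effect fitted on its own 6 libraries 1031 genes were Aire-dependent. Lost in both were 353 genes (20.9%), called and at least 2-fold lower in the Chd4 cKO, as were 5.87% of all genes tested. Another 66 were lower by less than 2-fold and are called partly lower. Raised were 143 genes (8.48%), called higher in the Chd4 cKO. Spared were 469 genes (27.8%), which were not called and whose 95% interval of the Chd4 effect left out a 2-fold fall. The rule bounds the lower side only, so rises that were not called are included. The Chd4 effects of the spared genes ran from -0.52 to 1.52, with a median of 0.18. The interval was derived from the F statistic and can be off where the change is near 0. The remaining 655 were undecided, since the interval reached a 2-fold fall, and at a median of 5.48 CPM in the Chd4 control they were the most weakly expressed class. In bulk samples, fewer cells of a type and less RNA per cell cannot be told apart. At the edge of the 2-fold limit, Il27 and Matn1 with Aire effects of -1.0011 and -1.0004 were just inside, and Slfn2 and Lta with -0.9982 and -0.9979 just outside.

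**Figure D1:**
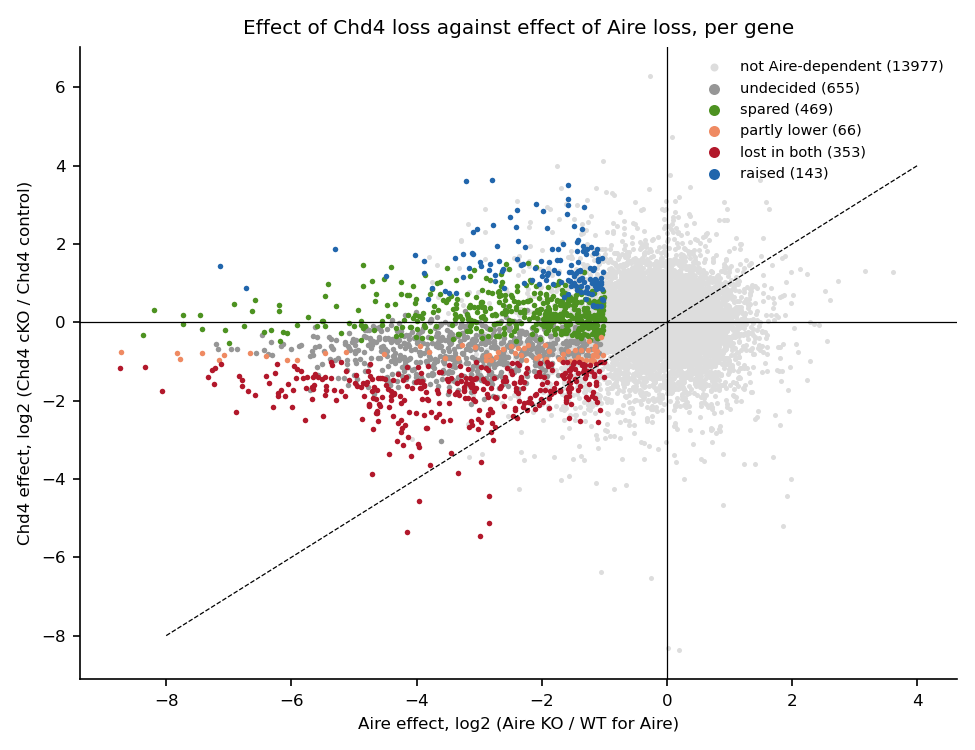
Each point is a gene, with the log2 fold change in the Aire KO on the x axis and in the Chd4 cKO on the y axis; colours give the classes of the 1686 Aire-dependent genes, grey the other genes tested, and the dashed line equal effects. Genes with 0 reads in a knockout are drawn at the bound that 3 reads over the group allow. The lost genes lie under a 2-fold fall on the y axis and most lie above the dashed line. The spared genes lie between -0.52 and 1.52 on the y axis and the raised genes above 0.

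Aire-dependent genes were called lower in the Chd4 cKO in 419 of 1686 cases (24.9%), against 10.9% of all genes tested, and higher in 8.48%, against 12.2%. Their median Chd4 effect was -0.53, against 0.02 over all genes. In 41.0% of them all 3 Chd4 cKO libraries lay under all 3 controls, against 20.6% of all genes. Over the alternative fits and thresholds, the share called lower was 2.065 to 2.881 times as high among Aire-dependent genes as among all genes.

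Weakly expressed genes are harder to call, so the shares were also read at matched levels. Among genes with 1 to 5 CPM in the Chd4 control, 10.1% of the Aire-dependent and 5.44% of those not called in the Aire KO were lower in the Chd4 cKO. The shares were 25.7% and 7.34% at 5 to 20 CPM, 39.9% and 8.25% at 20 to 100 CPM, and 46% and 13.1% at 100 CPM or more. In each of these 4 bands the Aire-dependent genes were thus called lower more often, and the gap was widest among well expressed genes.

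The size of the fall without Aire also went with the Chd4 result, though the share called lower stood out only in the band of the largest falls. Of 532 genes that fell 2 to 4-fold in the Aire KO, 21.1% were lower and 17.7% higher in the Chd4 cKO. At 4 to 8-fold 20.9% were lower and 6.87% higher, and at 8 to 16-fold 22.9% and 6.06%. Of 588 genes that fell over 16-fold, 31.3% were lower and 2.04% higher. The bands also differed in level, with medians of 14.8 CPM in the Chd4 control at 2 to 4-fold and 5.98 CPM over 16-fold. The part of level in these shares was not tested. The median Chd4 effect was -0.06 in the band of 2 to 4-fold and -0.88 in that over 16-fold. The genes raised by Chd4 loss were therefore mostly genes with a moderate Aire effect, with a median of -1.57 in the Aire KO, against -3.20 for the lost genes with unread genes set at their bound.

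**Figure D2:**
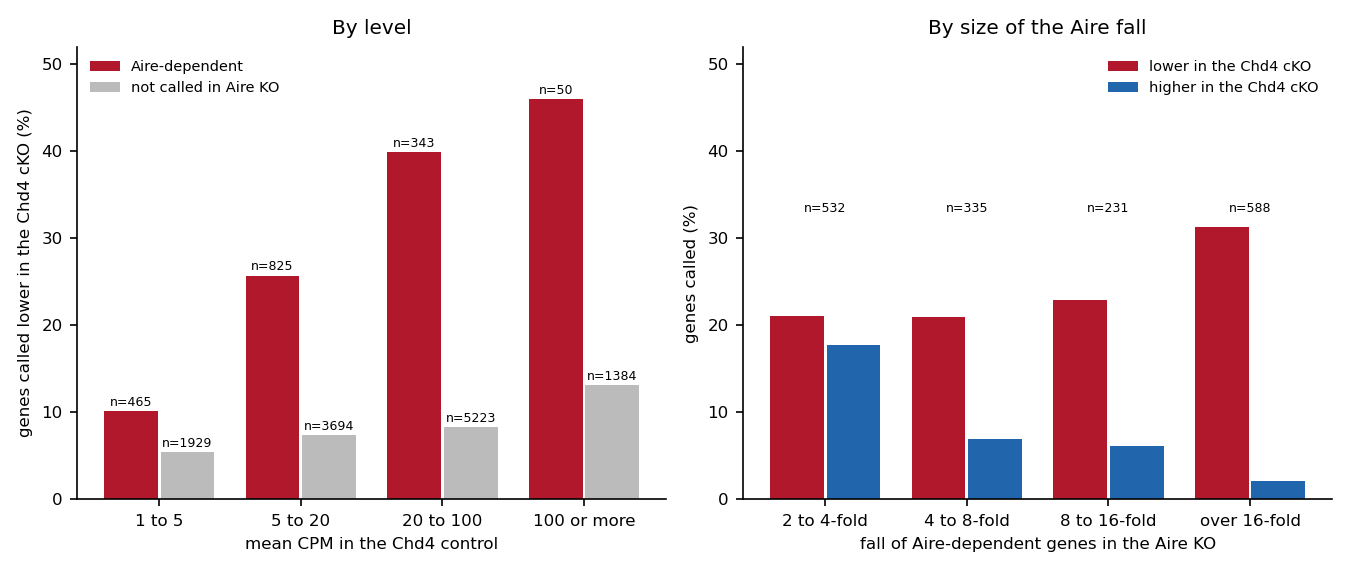
Left, share of genes called lower in the Chd4 cKO by mean CPM in the Chd4 control, for Aire-dependent genes (red) and genes not called in the Aire KO (grey). Right, share of Aire-dependent genes called lower (red) or higher (blue) in the Chd4 cKO by the size of their fall in the Aire KO; n is the number of genes behind each share. The red bars are the taller in all 4 level bands, and the blue bars shrink from 17.7% to 2.04% with the size of the Aire fall.

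Across the lost genes the median fall was smaller without Chd4 than without Aire. Chd4 RNA still lay at 23.3 to 28.8 CPM in the Chd4 cKO libraries, and its part in this was not tested. The median Chd4 effect of the 353 genes was -1.67, and their median level went from 13.3 CPM in the Chd4 control to 4.14 CPM without Chd4. None of them reached 0 reads over the 3 Chd4 cKO libraries, while 86 had 0 reads over the 3 Aire KO libraries. The Chd4 cKO libraries are deeper, so that 3 reads over the group stand for 0.0994 CPM there and 0.25 CPM in the Aire KO, and the numbers of genes at 0 reads cannot be compared directly. The difference of effects was called above 0 in 134 of the 353 and below 0 in 2. Since the Aire effect chose these genes, that count is a description and not a test.

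For 9 genes the bases just before the transcription start are printed, to show promoters of genes that react alike. They are the first 3 named genes of the lost, spared and raised classes with a single entry in RefSeq's table for GRCm38.p6, and each line gives the 60 bases before the start, 5′ to 3′ on the gene's strand. Capitals mark TATAAA, the core of the TATA box, which was searched on both strands as TATAAA and TTTATA.
Crisp3 (lost, chr17:40242289-40242348, minus strand): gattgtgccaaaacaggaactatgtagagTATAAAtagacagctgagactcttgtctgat
Sval1 (lost, chr6:41951568-41951627, plus strand): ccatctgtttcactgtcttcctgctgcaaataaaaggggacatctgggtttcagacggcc
Dkk1 (lost, chr19:30549497-30549556, minus strand): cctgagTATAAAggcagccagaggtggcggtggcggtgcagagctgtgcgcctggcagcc
Tac2 (spared, chr10:127724418-127724477, plus strand): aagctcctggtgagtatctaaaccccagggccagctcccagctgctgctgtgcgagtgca
Prss34 (spared, chr17:25298334-25298393, plus strand): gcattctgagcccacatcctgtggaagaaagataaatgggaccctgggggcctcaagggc
Prss29 (spared, chr17:25318594-25318653, plus strand): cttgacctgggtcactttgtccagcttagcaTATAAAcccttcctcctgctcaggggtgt
Atp2a1 (raised, chr7:126463074-126463133, minus strand): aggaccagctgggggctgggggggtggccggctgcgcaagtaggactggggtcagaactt
Trem2 (raised, chr17:48346341-48346400, plus strand): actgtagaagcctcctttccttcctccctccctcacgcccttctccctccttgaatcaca
Gpx6 (raised, chr13:21312143-21312202, plus strand): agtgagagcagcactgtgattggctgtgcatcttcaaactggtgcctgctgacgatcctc
TATAAA stands 31 bases before the start of Crisp3, 29 before that of Prss29 and 54 before that of Dkk1, counted to its first base, and not in the other 6 windows. These starts are those of RefSeq. By the gene intervals deposited with the counts, the Dkk1 window lies inside the gene and the Atp2a1 window overlaps its gene. Of the 32851 promoters in that RefSeq set, 3.92% hold it on either strand in the same window. A match of letters is a description and not a binding site. Promoter features were not compared between the classes, because the table held only 70.6 to 77.3% of the members of each class, too few for such a check.

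Crisp3, a cysteine-rich protein secreted by salivary gland and the male tract (chr17:40221777-40242288), lay at 9.78, 4.13 and 7.46 CPM in the WT for Aire and at 0.259, 0 and 0.516 CPM in the Aire KO. It went from 11.03, 13.8 and 18.5 CPM in the Chd4 control to 0.545, 1.003 and 1.43 CPM in the Chd4 cKO. The groups did not overlap in either experiment, which the rule for named lost genes required. The Chd4 effect was a 14.7-fold fall (log2 -3.88 ± 0.48, SE, edgeR adjusted p = 3.51e-05), and the 3 reads left over the Aire KO libraries gave a 28.9-fold lower level with an exact 95% counting interval of 9.6 to 143-fold.

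Dkk1, a secreted inhibitor of Wnt signalling (chr19:30545863-30549665), fell from 11.1, 16.5 and 13.1 CPM to 1.03, 0.234 and 1.55 CPM without Aire and from 23.9, 13.1 and 11.6 CPM to 1.09, 3.01 and 3.27 CPM without Chd4. Its fold changes were 14.4-fold and 6.48-fold lower, and the difference of effects of 1.15 ± 0.72 was not called (adjusted p = 0.273). Mbl2, a mannose-binding lectin made by the liver, was 8.11-fold and 5.49-fold lower. Sval1, a member of the seminal vesicle secretory protein family, was 18.8-fold and 6.49-fold lower. For Crisp3, Sval1, Dkk1 and Mbl2 the difference of effects was not called in any alternative fit run.

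Aipl1, a chaperone partner of photoreceptors (chr11:72027963-72037509), was lost in both but fell further in the Aire KO than in the Chd4 cKO. It went from 25.7, 17.2 and 23.8 CPM to 0.259, 0 and 0.258 CPM without Aire, and from 24.7, 24.4 and 25.6 CPM to 4.77, 5.41 and 5.10 CPM without Chd4. Its Chd4 effect of -2.28 ± 0.24 (adjusted p = 8.015e-06) was a 4.85-fold fall, and the difference of 4.61 ± 0.59 was called (adjusted p = 3.912e-05).

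Fgb, the fibrinogen beta chain of the liver, lay at 15.2, 11.2 and 7.46 CPM in the WT for Aire and had no read in the Aire KO, at least 45.2-fold lower at 3 reads over the group. In the Chd4 libraries it fell from 27.3, 34.0 and 13.8 CPM to 0.955, 5.35 and 8.37 CPM, a 5.23-fold fall (adjusted p = 0.004763). Dppa1, a gene known from early embryos and pluripotent cells, also had no read in the Aire KO, at least 24.8-fold lower, and was 4.98-fold lower in the Chd4 cKO.

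Muc16, a large membrane mucin, was 5.35-fold lower in the Chd4 cKO (adjusted p = 0.0124), and without Chd4 cKO A or without Chd4 cKO B it became undecided. Rbp4, the retinol carrier of the blood, was 6.96-fold lower in the Chd4 cKO (adjusted p = 0.008169) but had 2.83, 10.4 and 4.90 CPM in the WT for Aire and 2.59, 0 and 0 CPM in the Aire KO. Without WT for Aire B, without Aire KO B or without Aire KO C it was no longer called Aire-dependent.

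The 10 named spared genes, with the largest differences among those that passed the rule for named genes, had few or no reads without Aire. No change was called in them without Chd4. The rule that chose these genes favours the first and fixes the second, so this is a description and not a test. Tac2, which codes for neurokinin B (chr10:127724478-127731767), lay at 60, 48.6 and 57.4 CPM in the WT for Aire and at 0.259, 0.234 and 0 CPM in the Aire KO. It lay at 74.1, 65.9 and 80.3 CPM in the Chd4 control and at 79.5, 112 and 81.0 CPM after Chd4 loss, where the groups overlapped. The 2 reads left in the Aire KO put it 333-fold lower, with an exact 95% counting interval of 92.0 to 2759-fold. The Chd4 effect was 0.32 with a 95% interval of -0.005338 to 0.64 on the log2 scale, and the difference of 8.51 ± 0.42 was called (adjusted p = 2.96e-09).

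The other genes picked by the same rule include genes known from nerve, heart, skin, pancreas and liver. Nppa, the atrial natriuretic peptide, had 16.1, 18.5 and 32.6 CPM in the WT for Aire and a single read over the Aire KO libraries, and its Chd4 effect was -0.05 with an interval of -0.62 to 0.53. Crabp1, a retinoic acid binding protein, went from 40.0, 45.4 and 57.6 CPM to 0, 0 and 0.775 CPM without Aire, with a Chd4 effect of 0.18 (interval -0.20 to 0.56). Krt73, a keratin of the hair follicle, had a Chd4 effect of -0.17 (interval -0.61 to 0.27). Cpne6, a calcium-dependent membrane-binding protein of neurons, had one of 0.47 (interval -0.07 to 1.01), with all 3 Chd4 cKO libraries above the controls.

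Some spared genes had no read at all over the 3 Aire KO libraries. Cel, the bile salt-activated lipase of the pancreas, lay at 25.2, 22.1 and 24.7 CPM in the WT for Aire and was at least 96.2-fold lower in the Aire KO. Its Chd4 effect of 0.57 (interval 0.08 to 1.07, adjusted p = 0.08845) crossed into the raised class with limma voom or without Chd4 control C. Cyp1a2, a cytochrome P450 of the liver, was at least 98.97-fold lower without Aire, and went from 31.0, 43.4 and 47.7 CPM to 50.1, 53.0 and 45.5 CPM without Chd4. Bpifa5, of the airway BPI-fold family, had a Chd4 effect of -0.19 (interval -0.69 to 0.32). The interval of the Chd4 effect left out a 2-fold fall in all 469 spared genes, by the rule, and 248 of them also left out a 1.5-fold fall.

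The raised genes went below their control without Aire and above it without Chd4. Apoc1, an apolipoprotein made by liver and macrophages (chr7:19689481-19692660), went from 18.5, 17.0 and 18.2 CPM to 6.47, 5.14 and 6.46 CPM in the Aire KO. In the Chd4 libraries it went from 16.3, 19.5 and 20.1 CPM to 188, 222 and 223 CPM. That is a 2.98-fold fall (adjusted p = 6.133e-06) and an 11.3-fold rise (adjusted p = 1.193e-10). The rule for named raised genes required no overlap between groups in either experiment.

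Genes of muscle contraction and muscle metabolism stood among the 10 named raised genes. Atp2a1, the calcium pump of fast skeletal muscle (chr7:126445858-126463108), went from 19.6, 22.6 and 21.9 CPM to 5.95, 8.89 and 6.46 CPM without Aire and from 19.4, 18.2 and 14.0 CPM to 162, 151 and 143 CPM without Chd4. Pygm, the muscle glycogen phosphorylase, fell 5.70-fold without Aire and rose 6.43-fold without Chd4.

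Gpx6, a glutathione peroxidase known from olfactory epithelium, fell 5.24-fold without Aire and rose from 55.4, 51.5 and 51.1 CPM to 418, 423 and 317 CPM without Chd4. Reg1, a secreted lectin of the pancreas and gut, fell 5.29-fold and rose 5.40-fold. Calb1, a calcium-binding protein of kidney and neurons, fell 3.78-fold and rose 5.35-fold. Gstm2, a glutathione transferase, fell 2.67-fold and rose 4.27-fold. All of these passed the test in both directions, which the raised class requires.

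Other raised genes rested on fewer reads. Otof, otoferlin of the inner hair cells, lay at 4.57, 3.64 and 7.69 CPM in the WT for Aire and 0, 0 and 2.32 CPM in the Aire KO, and rose 5.62-fold without Chd4. Trem2, a receptor of macrophages and microglia, rose 7.67-fold without Chd4 but went from 5.65, 8.74 and 10.3 CPM to 5.43, 2.81 and 1.55 CPM in the Aire KO. Gstk1, a mitochondrial glutathione transferase, rose 5.50-fold. Trem2 was no longer Aire-dependent without WT for Aire B, WT for Aire C, Aire KO B or Aire KO C, nor with limma voom, all 18 libraries or separate fits. The same held for Gstk1 without WT for Aire C or Aire KO A and with limma voom, separate fits or equal depth, for Gstm2 without Aire KO B, and for Otof with separate fits. Of the 143 raised genes, 65 kept both calls at an adjusted p under 0.01, and without Chd4 cKO A the class held 90 genes.

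**Figure D3:**
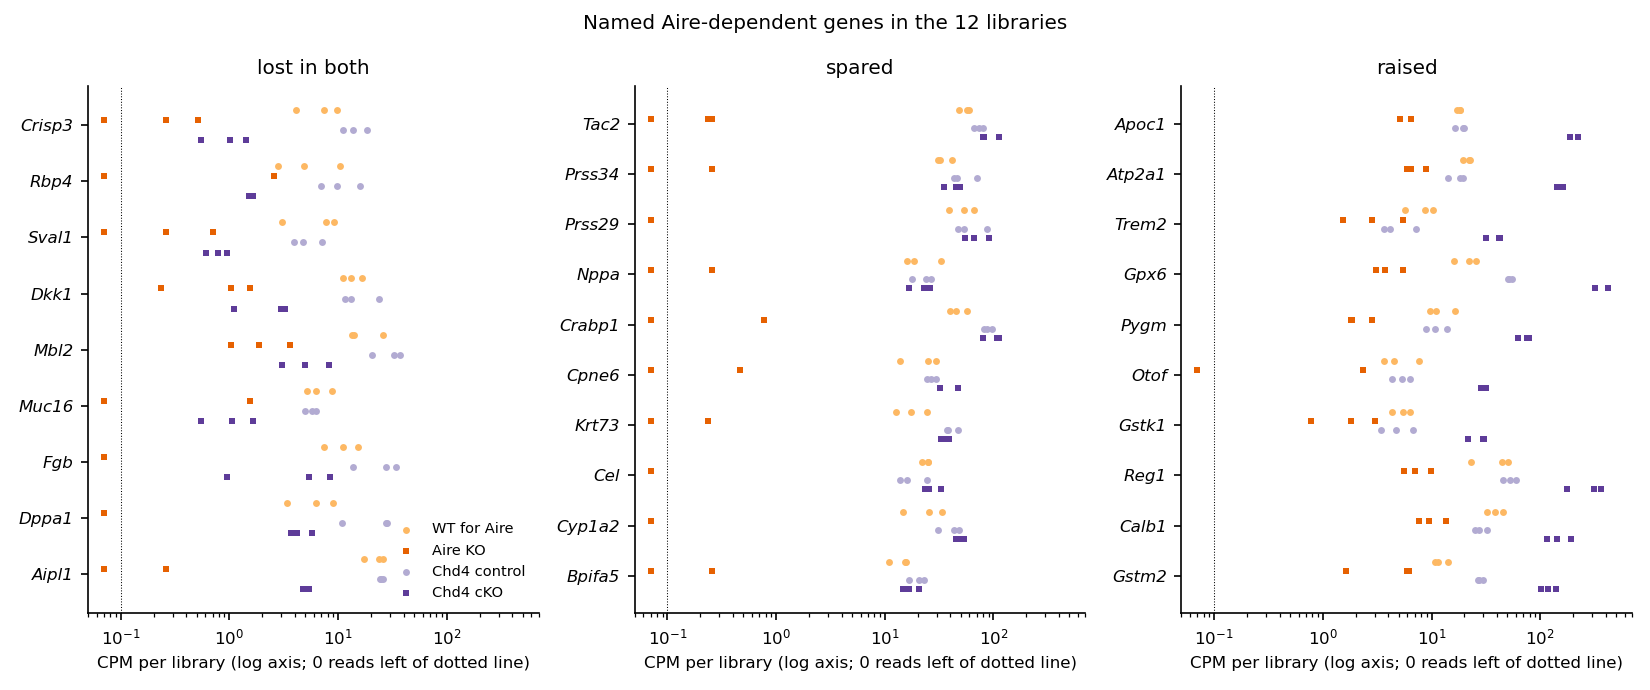
CPM of the named genes of each class (9 lost, 10 spared, 10 raised) in the 12 libraries, 1 point per library, on a log axis; circles are controls and squares knockouts, and points left of the dotted line have 0 reads. In the left panel both kinds of squares lie left of their circles, in the middle panel only the Aire KO squares do, and in the right panel the Chd4 cKO squares lie to the right.

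The largest other differences that passed the rule for named genes ran in both directions. Ces1a, a liver carboxylesterase, had a single read over the Aire KO libraries and rose 2.72-fold without Chd4. Mpo, the myeloperoxidase of neutrophil granules, went from 142, 107 and 103 CPM to 1.81, 0.468 and 1.03 CPM without Aire and from 98.5, 149 and 99.4 CPM to 209, 247 and 176 CPM without Chd4. Sox10, a transcription factor of neural crest and glia, had 4.13, 3.40 and 4.90 CPM in the WT for Aire, 1 read over the Aire KO libraries and a 3.69-fold rise without Chd4. The groups did not overlap in these genes in either experiment, which the rule that picked them required.

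Ins2, preproinsulin (chr7:142678656-142743381), and Pgc, the stomach's pepsinogen C, were lost in both, with a far larger Aire effect. Ins2 lay at 43.7, 20.6 and 37.8 CPM in the WT for Aire and at 0, 0 and 0.258 CPM in the Aire KO. In the Chd4 libraries it went from 28.1, 34.0 and 26.1 CPM to 13.1, 13.8 and 13.3 CPM (2.19-fold, adjusted p = 0.003892). The deposited interval of Ins2 runs well past the insulin gene, so reads of an overlapping gene may be counted with it. Pgc was 2.23-fold lower in the Chd4 cKO (adjusted p = 0.0003974). Ly6g, known from neutrophils, had 1 read over the Aire KO libraries against 45.7, 37.6 and 50.1 CPM, and its smaller Chd4 fall of 1.69-fold lost its call without Chd4 control B, Chd4 control C, Chd4 cKO A or Chd4 cKO C.

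In the opposite direction, genes rose without Aire and fell without Chd4. Dusp15, a phosphatase known from oligodendrocytes, went from 26.3, 25.01 and 29.6 CPM to 96.2, 101 and 118 CPM without Aire and from 21.8, 21.4 and 15.6 CPM to 3.82, 4.85 and 2.86 CPM without Chd4. Tulp2, a tubby-like protein, went from 38.9, 34.7 and 37.8 CPM to 88.0, 86.5 and 122 CPM and from 20.8, 25.3 and 22.1 CPM to 0.682, 2.45 and 1.84 CPM. Both passed the test in each experiment. That their groups did not overlap was required by the rule that picked them.

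Ntrk2, the receptor of brain-derived neurotrophic factor, was 16.0-fold lower without Chd4 and had an Aire effect of 1.99 ± 0.57 (adjusted p = 0.01921). Slco4c1, an organic anion transporter, was 5.33-fold lower without Chd4 with an Aire effect of 1.44 ± 0.44 (adjusted p = 0.02737). Tas2r129, a bitter taste receptor, and Gabra4, a GABA receptor subunit, were lower without Chd4, while their Aire effects of 1.69 and 1.45 were not called (adjusted p = 0.05871 and 0.1093). In all, 231 genes were higher without Aire and lower without Chd4. Their median level was 100.3 CPM in the WT for Aire, so they were well expressed genes, with median effects of 0.63 and -0.72.

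Aire itself belongs to these 231 genes. In the Chd4 libraries it went from 965, 972 and 948 CPM to 727, 787 and 731 CPM, a 1.29-fold fall (log2 -0.36 ± 0.09, adjusted p = 0.01069) with no overlap. Fezf2, another regulator of mTEC self-antigens, was 1.59-fold higher without Chd4 (adjusted p = 0.002085) and higher by 0.50 ± 0.13 on the log2 scale in the Aire KO (adjusted p = 0.01367).

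Lists of tissue genes showed how the classes fall over organs. Each list is a set of well-known genes, chosen with earlier results of these data known, so the counts are a description and not a test. They are of tested members. The shares of all genes beside them are 13.9% lower and 7.37% higher without Aire, and 10.9% lower and 12.2% higher without Chd4. Over all genes tested the median effects were -0.03 in the Aire KO and 0.02 in the Chd4 cKO. In the lists of peripheral tissues described next the medians in the Aire KO, with unread genes at their bound, ran from -3.34 in the exocrine pancreas over -2.80 in the intestine and -1.88 in liver plasma proteins to -0.82 in muscle. Those in the Chd4 cKO were -0.86, -0.77, -0.73 and 0.01 in the same order. Among 22 intestinal genes, 19 were lower without Aire, 12 lower without Chd4 and 1, Reg1, higher. Lost in both were 7 of them, among them the fatty acid binding proteins Fabp1, Fabp2 and Fabp6 and the trefoil peptides Tff1 and Tff3. Fabp2 went from 19.1, 24.8 and 28.0 CPM to 6.73, 6.55 and 2.58 CPM without Aire and from 34.4, 24.4 and 21.2 CPM to 7.23, 5.13 and 7.14 CPM without Chd4, with a difference of 0.11 that was not called (adjusted p = 0.887). Reg3a, an antimicrobial lectin of the gut, had no read in the Aire KO and a Chd4 effect of 0.68 that was not called.

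Of 10 islet genes tested, 8 were lower without Aire and 4 without Chd4. Iapp, the islet amyloid polypeptide, fell by the same measure in both, with effects of -1.84 ± 0.18 and -1.84 ± 0.17. Ppy, pancreatic polypeptide, had 31.1, 32.1 and 52.9 CPM in the WT for Aire and no read in the Aire KO, at least 154.9-fold lower, and fell from 39.9, 31.7 and 47.0 CPM to 16.2, 21.0 and 13.1 CPM without Chd4. Of 16 genes of the exocrine pancreas, 14 were lower without Aire and 4 without Chd4, while 9 were undecided.

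Of 21 liver plasma proteins, 12 were lower without Aire, 11 lower without Chd4 and 1 higher. The fibrinogen chains Fga, Fgb and Fgg, the inhibitor chain Itih3, the kininogen Kng1 and the lipoprotein Apob were lost in both. Apob fell from 39.8, 27.0 and 36.4 CPM to 7.503, 7.48 and 13.2 CPM without Aire and from 29.7, 40.7 and 27.2 CPM to 8.73, 8.02 and 8.78 CPM without Chd4. Ttr, the thyroxine carrier, had a Chd4 effect of -3.08, which was called, and an Aire effect of -0.36, which was not, and the difference of -2.72 was called.

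Of 22 brain and neuropeptide genes, 17 were lower and 2 higher without Aire, and 7 were lower and 3 higher without Chd4. Calb2, calretinin, went from 31.3, 18.5 and 31.2 CPM to no read without Aire, at least 108-fold lower, and stayed at 48.7, 56.3 and 60.4 CPM in the Chd4 cKO against 45.7, 64.6 and 64.2 CPM. Avp, vasopressin, had no read in the Aire KO, at least 45.2-fold lower, and a Chd4 effect of 0.03 ± 0.32. Vip, vasoactive intestinal peptide, was lost in both, with a Chd4 effect of -1.98.

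Of 16 muscle genes, 7 were lower without Aire, and without Chd4 1 was lower and 4 higher. Tnnc2, the troponin C of fast muscle, had 0.652, 2.43 and 2.10 CPM in the WT for Aire and no read in the Aire KO, and rose from 2.37, 3.22 and 0.892 CPM to 20.5, 35.6 and 24.3 CPM without Chd4. Des, desmin, was not called in the Aire KO and rose from 36.8, 40.9 and 34.6 CPM to 205, 234 and 202 CPM without Chd4. With all 18 libraries in the fit, 2 muscle genes were called higher without Chd4. Of 12 lung and airway genes, 11 were lower without Aire, and without Chd4 5 were lower and 2 higher, the latter Bpifa1 and the aspartic protease Napsa.

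**Figure D4:**
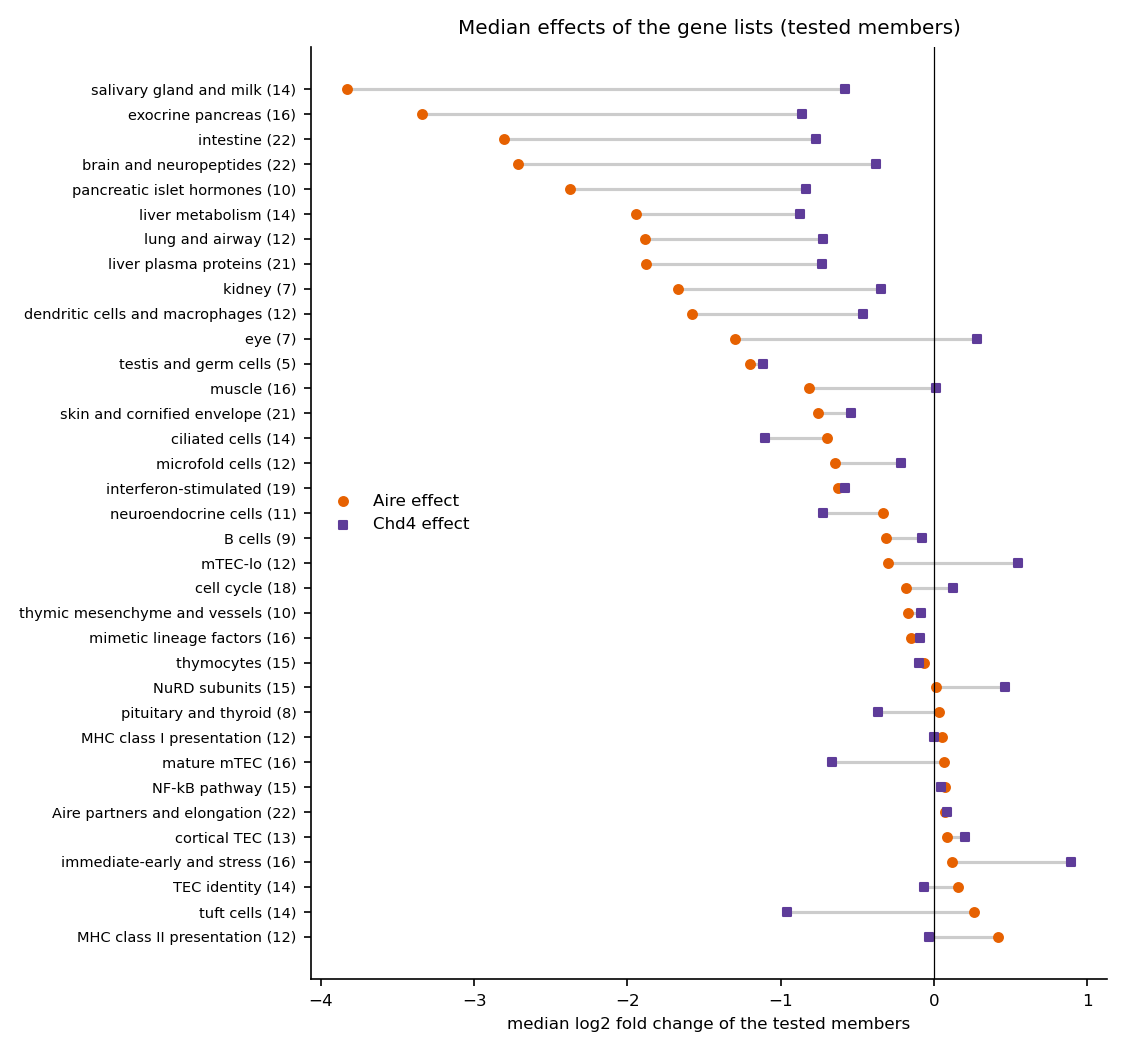
Median log2 fold change of the tested members of each gene list in the Aire KO (orange circles) and in the Chd4 cKO (purple squares), with the number of members tested in parentheses and genes with 0 reads set at their bound. In lists of peripheral tissues the circle mostly lies left of the square, while tuft cell and mature mTEC genes are among those with the square on the left.

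Tuft and microfold cell genes mark mimetic cells of the medulla. Mimetic cells are mTECs that take on the look of cells of other tissues. The median effects of the tuft cell genes were 0.26 without Aire and -0.96 without Chd4. Of 14 tuft cell genes none was lower without Aire and 1 (Gnat3) was higher, whereas 8 were lower without Chd4 and in 8 the difference lay below 0. Alox5ap, which helps make leukotrienes, fell from 22.6, 20.5 and 37.7 CPM to 1.23, 3.62 and 1.22 CPM without Chd4, and Trpm5, the cation channel of taste signalling, from 71.7, 88.0 and 126 CPM to 56.1, 42.5 and 36.9 CPM. Without WT for Aire A or without Aire KO C, 1 tuft gene was lower without Aire. Pou2f3, the master factor of the tuft lineage, was not called in either, with a Chd4 effect of 0.23. Of 12 microfold cell genes, 8 were lower and none higher without Aire, and 5 were lower and 2 (Aif1 and Tnfrsf11b) higher without Chd4, with medians of -0.64 and -0.21. In this list Gp2, Ccl20, Ccl6 and Pglyrp1 were lost in both. Gp2, the bacterial uptake receptor of microfold cells, had effects of -1.80 ± 0.29 and -1.67 ± 0.28.

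Of 16 genes of mature mTECs, 9 were lower and 1 (Ly75) higher without Chd4, and 6 were higher and 2 (Ccl17 and Ccl22) lower without Aire. Hdc, histidine decarboxylase, rose from 1543, 1336 and 1442 CPM to 2410, 2316 and 2468 CPM without Aire and fell from 1437, 1381 and 1228 CPM to 582, 468 and 435 CPM without Chd4. Nos2 and the costimulatory ligand Icosl followed the same course, while Cd80 and Cd40 were not called in the Chd4 cKO. Of 12 genes of mTEC-lo, the less mature mTECs, 7 were higher without Chd4 and 3 lower, and 2 were lower without Aire. Ccl21a, a chemokine that draws thymocytes to the medulla, fell from 1381, 2219 and 1015 CPM to 1029, 755 and 702 CPM without Aire, with an overlap, and rose from 1693, 1471 and 1994 CPM to 3825, 5113 and 4589 CPM without Chd4. Krt5, a basal keratin, had effects of -0.68 ± 0.13 and 0.79 ± 0.13.

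The summed level of the 16 mature mTEC genes was 6385 to 7310 CPM in the Chd4 control and 4039 to 4199 CPM in the Chd4 cKO, and 9505 to 9905 CPM in the WT for Aire against 12920 to 13670 CPM in the Aire KO. The 12 mTEC-lo genes summed to 3565 to 4097 CPM in the Chd4 control and 6514 to 8398 CPM without Chd4. In the other experiment they summed to 2706 to 4330 CPM in the WT for Aire and 2271 to 2806 CPM in the Aire KO. Ccl21a alone made up most of the rise without Chd4, where 3 of the 12 genes were lower. The part of these shifts in the lost and raised genes was not tested. Of 15 thymocyte genes tested none was called in the Chd4 cKO and 1 was higher in the Aire KO, and the 16 genes of the list in the tables summed to 208 to 226 CPM in the Chd4 control and 233 to 255 CPM without Chd4. Of 12 tested genes of dendritic cells and macrophages, 6 were lower without Aire, and 3 lower and 1 higher without Chd4. Adgre1 went from 34.6, 29.1 and 19.4 CPM to 0.776, 0.701 and 1.29 CPM without Aire and had a Chd4 effect of -0.44 that was not called. The 15 genes of that list in the tables summed to 1266 to 1510 CPM in the WT for Aire and 1317 to 1998 CPM in the Aire KO, and 1188 to 1342 CPM in the Chd4 control and 692 to 902 CPM without Chd4. The 9 B cell genes in the tables summed to 242 to 294 CPM in the Chd4 control and 306 to 390 CPM without Chd4, and to 265 to 352 CPM in the WT for Aire and 206 to 264 CPM in the Aire KO. The 12 genes of thymic mesenchyme and vessels summed to 379 to 437 CPM in the Chd4 control and 601 to 886 CPM without Chd4, and to 317 to 376 CPM in the WT for Aire and 463 to 565 CPM in the Aire KO. No marker of these lists was at 0 reads in all libraries, and the part of such cells in the results was not tested.

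Of 16 immediate-early and stress genes, 14 were higher and 2 (Jund and Ddit3) lower without Chd4, while 1 was higher without Aire, Ddit3, a count of 0 to 2 over the alternative fits. Fos went from 469, 596 and 493 CPM to 1483, 806 and 1388 CPM without Chd4. Nr4a1, which T cell and growth signals induce, went from 32.6, 23.2 and 28.5 CPM to 181, 55.2 and 96.7 CPM. Of 12 genes of class II antigen presentation, 10 were higher without Aire, whereas 3 were lower and 2 higher without Chd4. Ctss, the protease cathepsin S, had effects of 0.51 ± 0.10 and -1.05 ± 0.10, and the invariant chain Cd74 had 0.40 ± 0.10 and -0.29 ± 0.10. The 10 became 6 with all 18 libraries in the fit, and the 2 were 0 to 3 over the alternatives.

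Of 19 interferon-stimulated genes, 13 were lower and 1 (Cxcl10) higher without Aire, and 11 were lower and none higher without Chd4. Rsad2, an antiviral enzyme, went from 46.5, 34.5 and 23.1 CPM to 14.5, 11.7 and 8.52 CPM without Aire and from 50.4, 47.1 and 47.5 CPM to 18.1, 10.9 and 16.5 CPM without Chd4, and Isg15 and Irf7 were also lost in both. The count without Aire fell to 8 when WT for Aire B was left out. Of 15 NuRD subunits, 2 were lower without Chd4 (Chd4 and Rbbp7) and 6 higher. Among the 6 were Gatad2a at 0.82 and Mbd3 at 0.55 on the log2 scale. The 6 were 3 to 8 over the alternative fits and thresholds, and 1 subunit, Chd3, was higher without Aire. Of 22 genes of Aire partners and transcript elongation, 1 was lower and 3 higher without Aire, and 2 lower and 3 higher without Chd4.

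Aire-dependent genes lie in clusters along the chromosomes. Of the 1686 genes, 43.6% had another Aire-dependent gene as the next tested gene on either side, against 19.3% of all tested genes. The classes by Chd4 are subsets of these genes, so their shares carry the same clustering and were not tested apart from it. Of the lost genes 21.0% stood next to another lost gene, against 4.35% of all genes, and of the spared genes 14.3% stood next to another spared gene, against 5.81%. For the raised genes the shares were 4.20% and 1.81%, resting on 6 genes. There were 14 runs of 6 or more adjacent Aire-dependent genes, 103 genes in all, and those named next were chosen after their values were seen. Most of their members belong to gene families, and reads that fit several copies could be shared between these, so that the counts of single copies are uncertain.

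The longest run was 14 kallikrein genes on chr7:43950664-44229618, from Klk1b8 to Klk1, which code for glandular proteases. All 14 fell 2-fold or more without Aire, with effects of -1.17 to -5.90, taking the gene with no read at its bound. None was lower without Chd4, 3 were raised (Klk1b8, Klk1b9 and Klk1b27), 6 spared and 5 undecided, with a median Chd4 effect of 0.05. Klk1b27 rose from 5.52, 7.35 and 13.6 CPM to 26.6, 26.7 and 24.5 CPM. A run of 10 alpha-defensin genes on chr8:21025545-21530012, which code for antimicrobial peptides of Paneth cells, went the other way. All 10 had Chd4 effects below 0, with a median of -2.16, and 7 were lost in both. Defa33 fell from 6.31, 12.4 and 10.03 CPM to 1.77, 1.06 and 3.67 CPM without Chd4 and had no read in the Aire KO.

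A run of 6 mast cell and gland proteases on chr17:25298394-25374442 (Prss34, Prss28, Prss29, Tpsab1, Tpsb2 and Tpsg1) held 5 spared genes and no lost one. Prss34, a mast cell and basophil protease, had a single read over the Aire KO libraries and a Chd4 effect of -0.31 that was not called. Prss29 lay at 66.3, 53.4 and 38.9 CPM in the WT for Aire, had no read in the Aire KO, at least 212-fold lower, and went from 47.6, 53.5 and 86.5 CPM to 90.6, 66.9 and 55.1 CPM without Chd4. Tpsab1 had a Chd4 effect of 1.41 that rested on 17.7 CPM in Chd4 cKO B, against 3.55 and 1.43 CPM in the others. A run of 7 genes of the Ly6 family on chr15:74714839-74778859, from Psca to D730001G18Rik, had Chd4 effects of -0.59 to -1.87, all below 0, with 2 genes lost, 3 partly lower and 2 undecided. Psca, a surface protein of stomach and bladder, fell from 89.3, 68.2 and 76.5 CPM to 40.0, 37.5 and 32.9 CPM without Chd4.

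Other runs were mixed. In the 7 genes from Eps8l3 to Gstm1 on chr3:107877229-108017973, the glutathione transferases Gstm3 and Gstm7 were lost in both, Gstm5, Gstm6 and Gstm1 spared and Gstm2 raised. Gstm3 fell from 59.9, 81.6 and 83.2 CPM to 38.5, 33.4 and 28.6 CPM without Chd4, while Gstm2, its neighbour, rose from 27.1, 27.6 and 29.7 CPM to 139, 119 and 102 CPM. In the 8 genes from Ccl5 to Wfdc21 on chr11:83525778-83752642, Ccl6 was lost in both and Ccl5 raised, with Chd4 effects of -2.45 ± 0.25 and 1.34 ± 0.16.

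**Figure D5:**
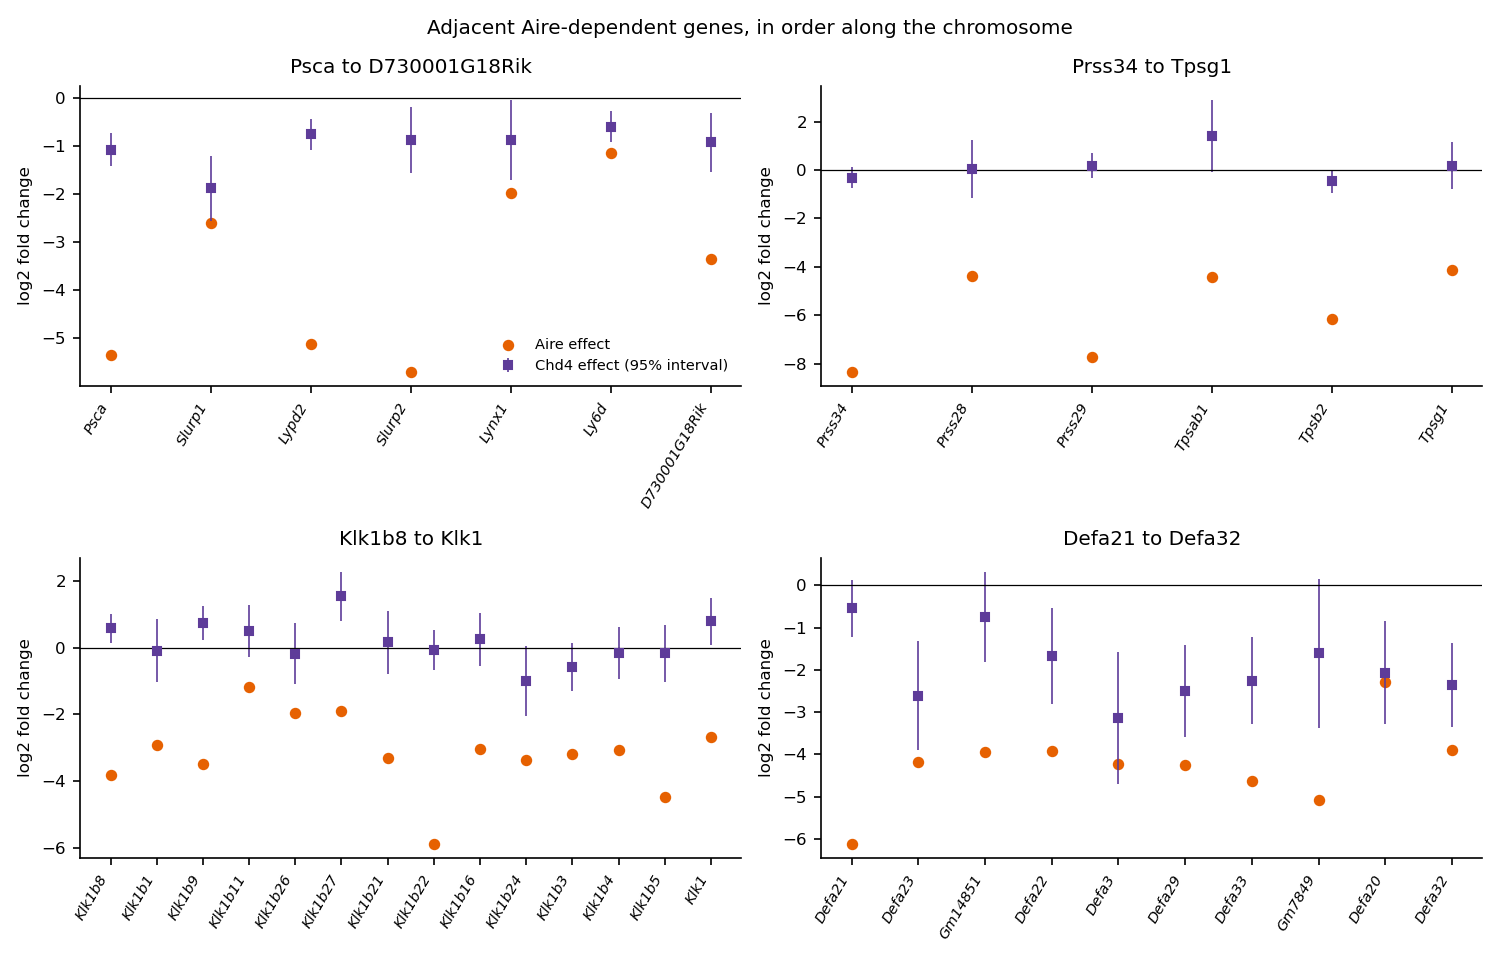
Log2 fold changes in the Aire KO (orange circles) and in the Chd4 cKO (purple squares with 95% intervals) for 4 runs of adjacent Aire-dependent genes, in their order along the chromosome, with genes of 0 reads in the Aire KO set at their bound. The squares lie around 0 in the kallikrein and tryptase runs and below 0 in the Psca and defensin runs, while all circles lie below -1.

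The Fezf2 libraries gave a readout that had no part in choosing the classes. Loss of Fezf2 lowered 2.42% and raised 2.53% of the 14993 genes tested there. Of 1529 Aire-dependent genes tested there, 73 (4.77%) were lower and 58 (3.79%) higher. The lower share was 6.97% in the lost, 5.47% in the spared, 7.46% in the raised and 2.14% in the undecided genes. The 73 became 22, 18 and 16 without Fezf2 KO A, B and C in turn and 139 without WT for Fezf2 B. The count thus changes strongly with the libraries in the fit. The shares of all genes in these refits are not given, so a change against them cannot be read.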

How the data were processed

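RNA-seq of mTECs was deposited as 1 table per experiment. The values used are whole-number counts of exon reads per gene, made by the authors from trimmed single reads, per the file headers. The submitters' processing notes name mm10, GRCm38 and DESeq2. For the aligner, its settings and the use of strand: not given in the sources used here. Columns carry a group name and a barcode, so libraries were assigned to groups but not to single samples, and 216 other columns of per-library values were not used. Start positions were raised by 1 to count from 1.

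The 12 Aire and Chd4 libraries were joined by gene ID (21875 shared) and fitted with edgeR 4.0.16 in R 4.3.3 (TMM scaling, filterByExpr, quasi-likelihood test, 4 group means). Adjusted p values are Benjamini-Hochberg values over all genes tested, and SEs were derived from the fitted change and its F statistic. A gene with 0 reads over 3 libraries was bounded at 3 reads over the group, and ratios from 1 to 3 reads have exact intervals, which cover counting error only. The Fezf2 libraries were fitted separately. The procedure was tested on simulated data with known changes. Alternatives used DESeq2 1.42.0, limma 3.58.1 (voom), other scaling, filters, samples, depth and thresholds, and left out each library.

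The genes, classes and lists were chosen with earlier results of these data known. Named genes are those with the largest weaker fall (lost), Chd4 effect (raised) or difference (spared), 10 each, and the 6 largest other differences each way. Of the lost genes 9 are given, since 1 that the rule picks is not reported here. The lost and spared genes had at least 5 CPM in both control groups, the raised genes in the WT for Aire and the other differences in 1 group. None had an overlap where a change was called. Predicted gene models were counted but not named. Other members of lists and runs were chosen after their values were seen.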

Additional observations from a re-analysis of the deposited data

Results flagged for a closer look

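The effect of Chd4 loss differed from that of Aire loss in 2384 genes upwards and 1320 downwards, by the test of the difference itself, and the following named genes are among them. Values are differences of log2 fold changes, Chd4 minus Aire, and for Fgb, Dppa1, Prss29, Cel and Cyp1a2 they are taken at the bound of 3 reads in the Aire KO. Strain and sequencing run cannot be told apart from the targeted gene in any of them.

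Among regulators the difference was -1.341 for Aire and -0.7192 for Chd4. That of Chd4 is a check of its deletion, and it lost its call in 9 of 20 alternative settings. These settings include the stricter threshold of 0.01 on the main fit and a filter that repeated the main fit.

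Among genes lost in both, the fall was still deeper without Aire by 3.112 for Fgb, 2.319 for Dppa1 and 4.606 for Aipl1. The call was lost in 5 alternative settings for Fgb and 2 for Dppa1, in both cases counting the threshold of 0.01.

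Among raised genes the difference was 5.068 for Apoc1, 4.723 for Atp2a1, 4.267 for Trem2, 5.265 for Gpx6 and 5.197 for Pygm. It was 5.271 for Otof, 3.948 for Gstk1, 4.836 for Reg1, 4.34 for Calb1 and 3.507 for Gstm2.

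Among spared genes it was 8.514 for Tac2, 8.055 for Prss34, 7.906 for Prss29, 7.684 for Nppa and 7.635 for Crabp1. It was 7.389 for Cpne6, 7.258 for Krt73, 7.162 for Cel, 6.912 for Cyp1a2 and 6.869 for Bpifa5.

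Among the other named genes the differences upwards were 8.591 for Ces1a, 7.968 for Ly6g, 7.6 for Mpo, 7.578 for Pgc, 7.206 for Ins2 and 7.191 for Sox10. Downwards they were -5.981 for Ntrk2, -5.142 for Tas2r129, -5.026 for Tulp2, -4.212 for Dusp15, -3.857 for Slco4c1 and -3.719 for Gabra4. Gabra4 lost its call only at an adjusted p under 0.01, a stricter threshold on the same fit.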

How the results depend on the processing

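At equal depth 320 genes were lost and 620 undecided. With limma voom 132 genes were partly lower and 293 undecided. With all 18 libraries in the fit, 826 genes had a difference below 0 and 42 were partly lower. With each effect fitted on its own 6 libraries, 1031 genes were Aire-dependent, 120 partly lower and 195 undecided. At an adjusted p under 0.01 the difference was above 0 in 1304 genes and below 0 in 692, and 170 genes were lost, 20 partly lower and 65 raised. With a 1.5-fold bound 248 genes were spared. With no fold limit on the Aire effect, 120 were partly lower, 271 raised and 751 spared. Apart from the thresholds, which by construction change how many genes qualify, the cause was not tested. Leaving out 1 library gave 32 to 90 partly lower genes, with 32 to 35 without any one Chd4 library, and 90 to 142 raised genes, with the 90 without Chd4 cKO A. The Fezf2 count ranged from 16 to 139. The other counts stayed within 1.5 times when 1 library was left out, at 245 to 371 lost genes and 1491 or more Aire-dependent genes. Of the 353 lost genes, 231 to 322 were again lost when 1 library was left out. Of the 469 spared genes 358 to 399 were again spared, and of the 143 raised genes 90 to 115 were again raised. DESeq2, RLE scaling, no filter on low counts and equal depth moved none of the counts of classes or of called differences by over 1.5 times. Asking also for at least 1 CPM in 3 libraries removed no gene of the 15663. It thus repeated the main fit and could show no dependence. No paired analysis was possible because the names of the count columns hold no replicate number, only the group and the library's barcode.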
